A study of Homo sapiens with 4 samples.

Results

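HT29 is an established human colon adenocarcinoma cell line, and its baseline expression was described here from the 2 libraries of a microRNA study that received no active reagent. All 4 libraries of the study came from HT29 cells of passages 12 to 13, grown in McCoy medium with 5% serum to 90% confluency and transfected using Lipofectamine 2000. The labels give the amount as "50nm", read here as 50 nM. The precursor control received the control of a miR-23b precursor, and the antimir control received the control of an antimir against miR-23b. The medium was changed at 24 h, and cells were lysed in Trizol for RNA at 48 h. The precursor and antimir libraries, which did receive the active reagents, are cited only for values side by side. Each group held 1 library, so no value has a replicate error and no test was made. Transfected cells of 1 line serve as the baseline, and cells that saw no reagent were not analysed here.

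Members were chosen as genes with a transcript entry that had not failed in either of the 2 deposited tables, and their transcripts were summed per gene. This gave 42247 of the 53617 genes in the tables, of which 18354 are protein-coding in GENCODE 29. Values are FPKM, the density of read fragments per length of transcript and per library size. The 2 controls came from tables normalised separately, so levels were read by rank within a library. Differences were taken as log2(FPKM + 1) of the precursor control minus that of the antimir control, for the 14549 genes whose mean over the controls was 1 FPKM or more, after removing their median of 0.32. Adding 1 shrinks the differences of genes at low level. A centred difference between -0.32 and 0 is therefore above 0 in the values as deposited. Neither table holds read counts, and sequencing depth is therefore unknown.

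Colon epithelium is a single layer of columnar cells held together by E-cadherin junctions and claudin seals and built on a cytoskeleton of simple keratins. Its absorptive and secretory cells are specified by intestinal transcription factors such as CDX2, HNF4A and KLF5, and most colon carcinomas keep part of this program. HT29 cells are known for a poorly differentiated state in glucose-rich medium, with lineages of absorptive and mucus-secreting cells obtainable under selection.

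Both controls carried the markers of colon epithelium. KRT8, a keratin of simple epithelia, was at 6664.5 FPKM in the precursor control and 2346 in the antimir control, which placed it 12th and 39th among protein-coding genes. Its partner KRT18 was at 2204 and 1526 FPKM, and EPCAM, an adhesion protein of epithelia, was at 689 and 531. CDH1, which encodes E-cadherin, was at 263 and 226 FPKM, and at 84.0 and 73.0 from transcripts of at least 300 bases in GENCODE 29. CDX2, the transcription factor that sets intestinal identity, was far lower than these, at 2.42 and 2.36 FPKM, or ranks 10289 and 10038. The epithelial genes of the marker set were thus at high rank, and the intestinal one was low. In hg19, the tables place EPCAM on chromosome 2 (47572297 to 47614740), CDH1 on chromosome 16 (68771128 to 68869445) and CDX2 on chromosome 13 (28535826 to 28545276), and they give KRT8 and KRT18 1 shared locus on chromosome 12 (53290971 to 53346686).

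**Figure D1:**
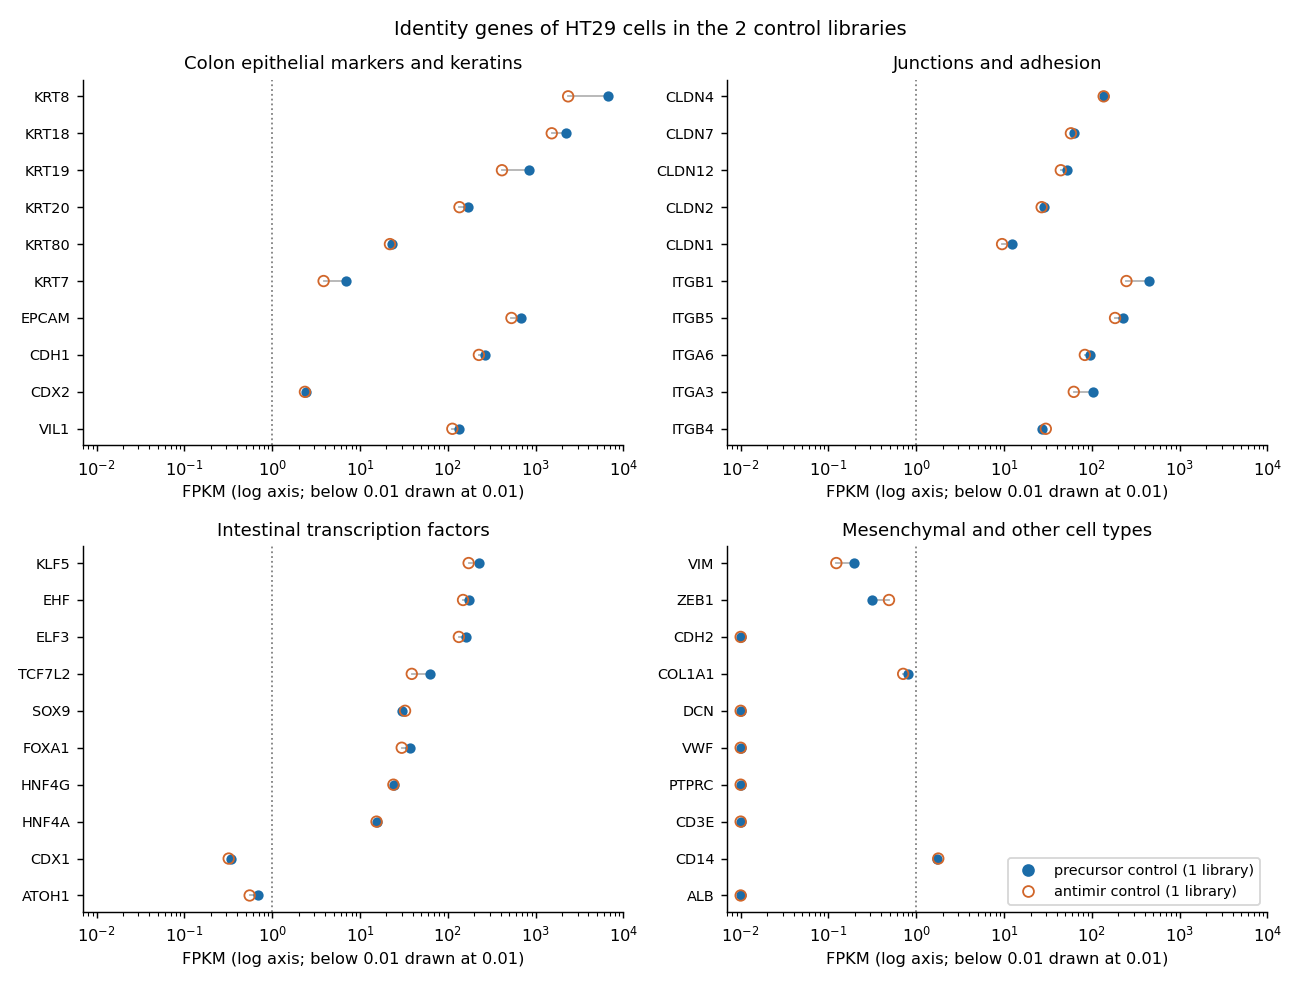
FPKM of identity genes in the precursor control (filled) and antimir control (open), 1 library each, on log axes with a dotted line at 1 FPKM. Keratins 8 and 18, EPCAM and CDH1 lie above 100 FPKM in both libraries, CDX1 and ATOH1 lie below 1, and CDH2, DCN and ALB lie at or near 0.

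Most genes of other cell types were below 1 FPKM. A value of 0 says only that a gene is listed at 0, since GPX4, which most cells use, was also listed at 0 in all 4 libraries. Of 10 fibroblast and stroma markers none reached 1 FPKM in either control, and together they summed to 1.16 FPKM in the precursor control and 0.864 in the antimir control. COL1A2, COL3A1 and PDGFRA were listed at 0 in both. Of 9 lymphocyte markers, CD3D, CD3E and MS4A1 were listed at 0 in both controls, and the highest was CD4 at 0.9 and 1.30 FPKM. Among 7 endothelial markers with a value, ENG was at 5.93 and 5.82 FPKM while CDH5, KDR and ERG were listed at 0. The myeloid list summed to 3692 and 3596 FPKM, nearly all of it from LYZ, at 3685 and 3588. LYZ encodes lysozyme, which gut secretory cells also make, and the myeloid genes CD163 and FCGR3A were listed at 0 in both. Of 8 hepatocyte and lung markers, ALB, SFTPC and SCGB1A1 were listed at 0 in both, and no member exceeded 1.90 FPKM in the precursor control or 1.82 in the antimir control. Of 8 neuronal and muscle markers, NCAM1, MYOD1 and MYH2 were listed at 0 in both. The highest was RP11-566K11.2 (TUBB3, a beta-tubulin), at 8.19 and 3.02 FPKM, a difference past 1.5-fold.

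Few mesenchymal genes reached 1 FPKM. Of 20, only S100A4 (605 and 545 FPKM), TAGLN (9.11 and 10.6) and FN1 (2.32 and 1.85) reached 1 FPKM in both controls. VIM, the intermediate filament of mesenchymal cells, was at 0.193 and 0.123 FPKM. CDH2, SNAI2, TWIST1 and TWIST2 were listed at 0 in both controls, and ZEB1 was at 0.315 and 0.489.

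The highest genes of each library were read over protein-coding genes, because short and unmatched entries headed the full lists. The 10 highest genes of any kind held 38.2% of all FPKM in the precursor control and 32.4% in the antimir control, and most of them were mitochondrial transfer RNAs or entries with no match in GENCODE 29. The mitochondrial transfer RNA gene J01415.22 (MT-TP) was at 95257 and 104569 FPKM, while J01415.8 (MT-TA) was at 112485 FPKM in the precursor control and listed at 0 in the antimir control. Such entries are short, and their levels per length were not compared with those of messenger RNAs.

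Among protein-coding genes, 89 of the 100 highest were common to both controls, as were 443 (88.6%) of the 500 highest. The 100 highest held 41.6% of protein-coding FPKM in the precursor control and 38.8% in the antimir control. Across the 11145 protein-coding genes with a difference, Spearman's rho between the libraries was 0.968, given as a description, since genes are not independent replicates. At least 1 FPKM was reached by 11204 protein-coding genes in the precursor control and 10938 in the antimir control, with 10849 in both. At least 100 FPKM was reached by 1414 and 975.

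The leading messenger RNAs encoded the translation machinery and the respiratory chain of mitochondria. Among the 100 highest of the precursor control were 33 genes of the large and 23 of the small ribosomal subunit, and among the 100 highest of the antimir control 36 and 23. RPS3, of the small subunit, was at 9825 and 7026 FPKM. TPT1, a translationally controlled protein abundant in growing cells, was at 8144 and 5898 FPKM, and EEF1A1, the factor that brings aminoacyl-tRNA to the ribosome, was at 7853 and 3473. MT-CO2, a mitochondrially encoded subunit of cytochrome oxidase, was at 8420 and 7204 FPKM, ranks 7 and 3.

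Many genes of the translation machinery begin their messenger RNA with a terminal oligopyrimidine tract, a C followed by a run of C or T, through which growth signals regulate their translation. To show the tract, the 30 bases from 10 before to 20 after the RefSeq start (GRCh38.p14) are given for 5 translation genes of high rank. Those of 3 other high genes follow. The tract is in capitals where a C within 5 bases of the start was followed by at least 4 bases that are each C or T:
RPS3: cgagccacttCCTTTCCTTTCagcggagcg
TPT1: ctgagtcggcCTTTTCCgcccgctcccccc
RPL27A: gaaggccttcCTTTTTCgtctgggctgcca
RPS25: gcagcgcttcCTTTTTgtccgacatcttga
EEF1A1: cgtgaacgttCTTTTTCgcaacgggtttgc
KRT8: catgattttcattcagcaaatgtttgcgga
GAPDH: gtgcatccctgtccggatgctgcgcctgcg
S100A6: gacacagcccatCCCCTCgaccgctcgcgt
The windows lie at chr11:75399508-75399537 (plus strand) for RPS3, chr13:45341164-45341193 (minus) for TPT1, chr11:8682782-8682811 (plus) for RPL27A, chr11:119018324-119018353 (minus) for RPS25 and chr6:73521013-73521042 (minus) for EEF1A1. Those of the other genes lie at chr12:52926450-52926479 (minus) for KRT8, chr12:6535254-6535283 (plus) for GAPDH and chr1:153535972-153536001 (minus) for S100A6. A single start was read for each gene, the first listed for it, and whether HT29 cells use that start was not tested. At these starts the 5 translation genes have the tract at the first transcribed base, and S100A6 has one that begins 2 bases later. No tract was found at the starts read for KRT8 and GAPDH. None was found either for TXNRD1, at rank 2 among protein-coding genes in both controls and not printed.

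A tract was found in 31 of 38 large-subunit genes with a RefSeq start (81.6%), in 21 of 26 small-subunit genes (80.8%) and in 13 of 27 translation factor genes (48.1%). It was found in 22.8% of the 9073 protein-coding genes with a difference that were matched, and in 21.1% of all 27305 starts in the table. Of the 100 highest genes of the antimir control, 75 had a start in the table and 55 of these had a tract (73.3%). With the ribosomal and translation factor genes removed, 9 of 22 had one (40.9%). The search read 1 start per gene and 1 strand, that of the gene, and a tract in these windows is a description of the sequence only. Over all genes the tract did not mark high level: the median was 21.7 FPKM in the precursor control with it and 20.4 without, and 17.1 and 16.002 in the antimir control.

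Selenoprotein genes stood among the highest of both libraries, and their list was made after their values were seen. These genes encode enzymes, mostly of redox reactions, that carry selenocysteine, an amino acid read from a TGA codon that elsewhere ends translation. TXNRD1, thioredoxin reductase and a target of the oxidative stress factor NRF2, ranked 2nd among protein-coding genes in both controls, at 28354 and 8809 FPKM. It lies on chromosome 12 (104609557 to 104744061, hg19). To show the codon that defines the list, the coding bases around the in-frame TGA codon (capitals) are given from GENCODE 29 transcripts:
TXNRD1: ctccaggctggctgcTGAggt
TXNRD2: acggtgacaggctgcTGAggg
SELENOS: ccgtcatctggcggaTGAggc
GPX2: aatgtggcttcgctcTGAggcacaaccacc
SELENOF: cttgaagtttgtggaTGAaaattgggaagg
DIO1: tttggaagttgtaccTGAccttcatttatg
In TXNRD1 the codon is number 648 of 649 and in SELENOS number 188 of 189, whereas in GPX2 it is number 40 of 190 and in DIO1 number 126 of 249.

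The levels of this family depended on which transcript entries were used. GPX2, the glutathione peroxidase of the gut epithelium, was at 4914 and 3369 FPKM, and at 3191 and 1814 when only entries with the authors' status OK in both tables were summed. SELENOS, a membrane protein of the endoplasmic reticulum, was at 6003 and 3675 FPKM, and at 37.1 and 37.4 from OK entries only. TXNRD2, the mitochondrial thioredoxin reductase, was at 11347 and 382 FPKM, and at 20.8 and 16.6 from OK entries. GPX4, the peroxidase that protects membrane lipids, was listed at 0 in both controls. TXNRD1 stayed at 14775 and 3213 FPKM from OK entries. Of the 25 genes, 19 had a difference and 13 of them were past 1.5-fold higher in the precursor control, against 6.83% of all protein-coding genes. Their median was 1.25. With OK entries only DIO1, SELENOM and SELENON had no difference, and the median over the rest was 0.17. In that setting GPX3 (2.85), TXNRD1 (2.02), SELENOF (1.41), TXNRD3 (1.11), MSRB1 (0.93) and GPX2 (0.63) were still past 1.5-fold, and the others were not. SELENOF, a protein of the endoplasmic reticulum, was at 16489 and 1436 FPKM, and SELENOT at 2188 and 178. From OK entries SELENOF was at 1042 and 345 FPKM and SELENOT at 93.7 and 84.4, a difference of -0.03. GPX3, the secreted glutathione peroxidase, was at 1043 and 177 FPKM, and it was among those that stayed high in both settings, at 668 and 81.1 from OK entries.

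Keratin use was that of a simple epithelium. Of 39 keratin genes, 11 reached 1 FPKM in both controls and 16 were listed at 0 in both. After KRT8 and KRT18 came KRT19 at 845 and 414 FPKM, KRT20, a keratin of differentiated gut cells, at 169 and 136, and KRT80 at 23.4 and 21.9. KRT7, usual in other glandular epithelia, was lower at 6.88 and 3.85 FPKM, and the keratins of stratified epithelium KRT5 and KRT14 were below 1. KRT8 depended on short or unmatched entries: from transcripts of at least 300 bases in GENCODE 29, with unmatched ones left out, it was at 2372 and 1494 FPKM, close to KRT18.

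Junction and adhesion genes were led by a few members of each family. Of 18 claudin genes with a value, 7 reached 1 FPKM in both controls, in the order CLDN4 (138 and 136 FPKM), CLDN7 (63.3 and 57.7), CLDN12 (52.4 and 44.3), CLDN2 (28.7 and 26.8), CLDN1 (12.4 and 9.49), CLDN15 and CLDN11. CLDN3 had no transcript entry and therefore no value. Of 21 cadherin genes, CDH3 (3.36 and 1.91 FPKM) and CDH24 (1.88 and 1.43) followed CDH1, and CDH17, the liver-intestine cadherin, was below 1. Of 26 integrin genes 13 reached 1 FPKM in both, led by the beta subunits ITGB1 (449 and 247) and ITGB5 (228 and 184) and the alpha subunits ITGA6 (95.2 and 83.1) and ITGA3 (104 and 62.2). ITGA6 with ITGB4 (26.8 and 29.9 FPKM) forms the receptor of hemidesmosomes.

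Intestinal transcription factors covered a wide range of levels. KLF5, a factor of proliferating crypt cells, was at 226 and 173 FPKM, and the epithelial ETS factors EHF (173 and 149) and ELF3 (162 and 134) came next. TCF7L2, the effector of Wnt signalling in the gut, was at 62.7 and 38.9 FPKM, SOX9 at 29.9 and 32.6, HNF4G at 24.2 and 24.0 and HNF4A at 15.7 and 15.4. CDX1 (0.336 and 0.319 FPKM) and ATOH1, the switch to secretory fate, were below 1. Of 33 factors listed, 19 reached 1 FPKM in both controls.

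HOX genes record the position of a cell along the body axis, and the HOXA and HOXB clusters held the highest levels. HOXB9 was at 106 and 86.1 FPKM, HOXB6 at 69.2 and 53.8, HOXA10 at 50.9 and 45.5, and HOXA5 at 32.8 and 28.9. All 11 HOXA genes reached 1 FPKM in both controls. In the HOXC cluster HOXC4 (12.7 and 12.3 FPKM) and HOXC6 (11.3 and 12.4) stood out. The HOXD cluster was nearly silent except for HOXD13, at 1.07 and 1.24 FPKM. HOXB8 was the member past 1.5-fold higher in the precursor control, at 81.2 and 27.1 FPKM. It came to 19.8 and 15.96 from transcripts of at least 300 bases in GENCODE 29 alone.

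**Figure D2:**
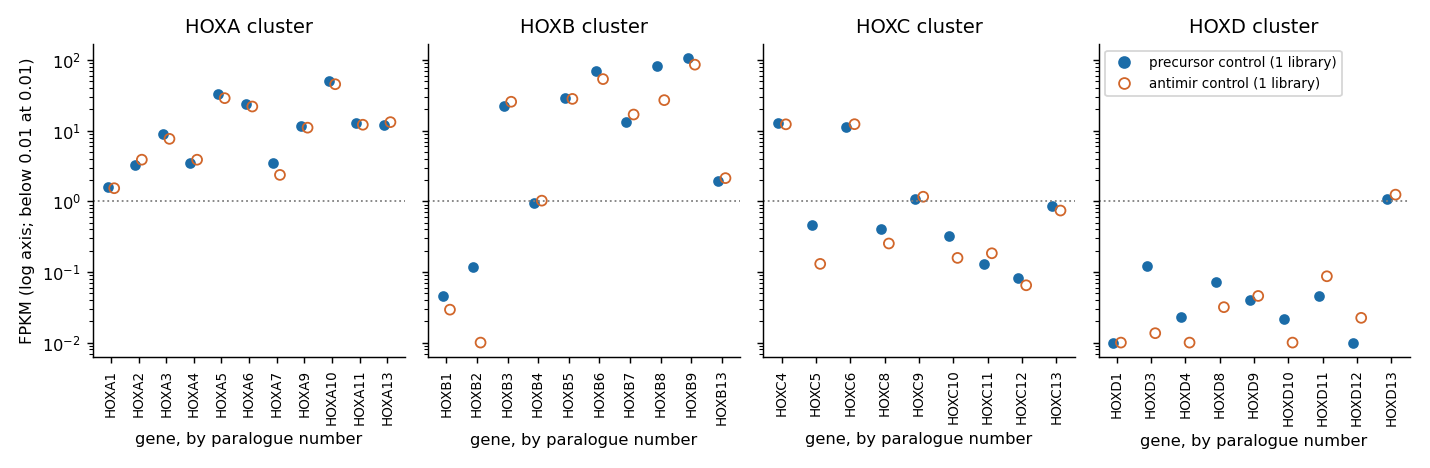
FPKM of the 39 HOX genes by cluster and paralogue number on a log axis, for the precursor control (filled) and the antimir control (open), with a dotted line at 1 FPKM. All HOXA genes lie above the line, the highest values are in HOXB, and in HOXD only HOXD13 lies above it.

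Markers of mature colon cells were split. Of 25 enterocyte genes 8 reached 1 FPKM in both controls, led by LGALS4 (381 and 363 FPKM), KRT20 and VIL1, the actin bundler of the brush border (134 and 113). FABP1 was at 12.9 and 11.4 FPKM, and the brush border enzymes SI, ALPI and LCT were below 1. Among 26 goblet and mucin genes, AGR2, a disulfide isomerase needed for mucin folding, was highest at 1626 and 604 FPKM. AGR2 too rested on short or unmatched entries, with 371 and 290 FPKM from transcripts of at least 300 bases. The transmembrane mucin MUC13 was at 78.8 and 37.0 FPKM and the gel-forming MUC5AC at 6.07 and 7.37, while MUC2, the main mucin of colon goblet cells, was below 1. Of 18 enteroendocrine and tuft cell genes only ISL1 (7.54 and 5.46 FPKM) and AVIL (6.66 and 4.70) reached 1 in both, and CHGA was below 1.

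Stem and progenitor genes were led by CD44, the hyaluronan receptor (657 and 588 FPKM), and ALDH1A1, a retinal dehydrogenase (673 and 557). The Wnt feedback genes RNF43 (30.4 and 30.1 FPKM), AXIN2 (15.6 and 17.3) and ZNRF3 (14.1 and 15.1) were expressed, LGR5, the crypt stem cell receptor, was at 3.10 and 4.24, and OLFM4 and SMOC2 were below 1. ERBB3 led the EGF receptor family at 251 and 160 FPKM, ahead of ERBB2 (28.2 and 29.2) and EGFR (11.01 and 11.01), with ERBB4 below 1. Of the ligands, EREG (26.8 and 22.8) and TGFA (20.5 and 17.0) were at like levels in both controls, and AREG was at 39.3 and 1.83. AREG has a near-identical copy, AREGB, at 33.2 FPKM and listed at 0, so the level of either is uncertain.

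SLC2A1, the glucose transporter of most tumour cells, was at 143 and 119 FPKM, with SLC2A2 and SLC2A3 below 1. Among glycolytic genes LDHB was at 2422 and 833 FPKM, GAPDH at 2046 and 1783 and ALDOA at 1571 and 1385. All 37 proliferation genes reached 1 FPKM in both, among them CDK1 (213 and 155) and MKI67 (98.4 and 54.5). S100A6 (3328 and 2506 FPKM) led the calcium-binding S100 genes and S100A8 and S100A9 were below 1. ANXA2 (2646 and 1152) led the annexins, and CEACAM1 (99.6 and 69.8) the carcinoembryonic antigen family, in which CEACAM5 was at only 1.28 and 0.979. LCN2, an iron-scavenging protein of inflamed gut, was at 168 in both controls.

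The next question was where the 2 controls differed beyond their median. Of the 11145 protein-coding genes, 761 (6.83%) were at least 1.5-fold higher in the precursor control and 207 (1.86%) in the antimir control. Over all 14549 genes these were 2439 (16.8%) and 495 (3.4%). Without centring, the protein-coding counts became 2260 and 39, and those of all genes 4133 and 182. Within 0.25 log2 of the median lay 55.0% of the protein-coding genes. No replicate tells how much of this spread would recur, and the reagent given, the table and the library cannot be told apart.

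**Figure D3:**
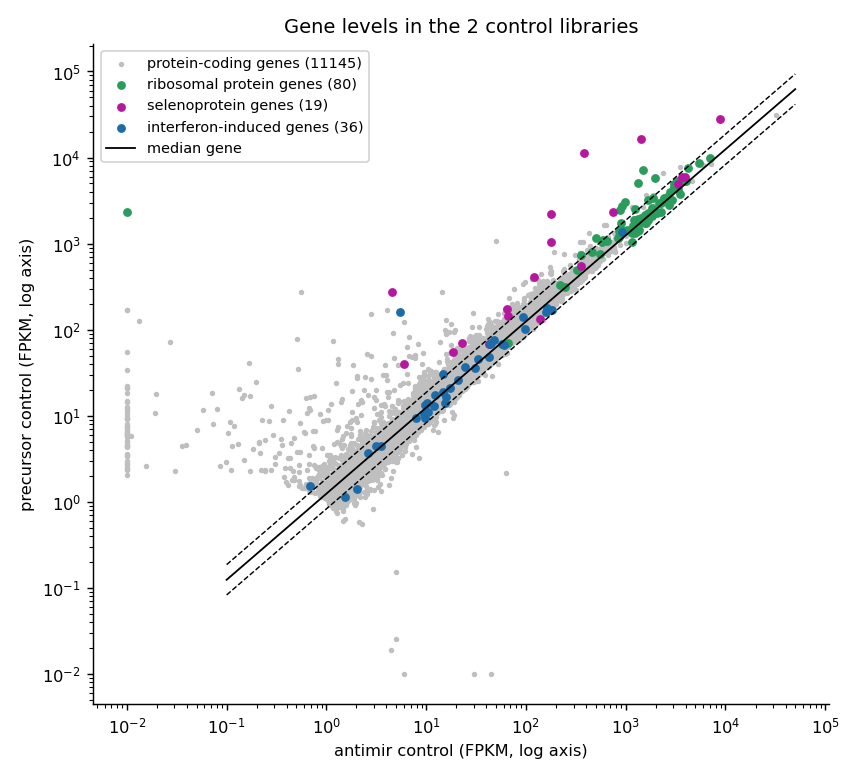
FPKM of 11145 protein-coding genes in the precursor control against the antimir control on log axes, with ribosomal protein, selenoprotein and interferon-induced genes in colour. The solid line marks the median gene and the dashed lines 1.5-fold to either side (exact only at high FPKM, since the difference adds 1), and values below 0.01 are drawn at 0.01.

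Most lists of functional genes lay close to the median gene. The median over all protein-coding genes was -0.04, with 6.83% past 1.5-fold higher in the precursor control and 1.86% in the antimir control. Large ribosomal subunit genes had a median of 0.16 with 7 of 47 (14.9%) past 1.5-fold higher in the precursor control. Small subunit genes had one of 0.08 with 5 of 33 (15.2%). Among these RPL14 was at 7110 and 1506 FPKM, RPL4 at 5787 and 1963, and RPS17L was at 2306 FPKM and listed at 0. From transcripts of at least 300 bases, with unmatched ones left out, RPL14 was at 791 and 580 FPKM, within 1.5-fold of the median gene. In that setting RPL4 was at 4817 and 426 FPKM, and its centred difference rose from 1.24 to 3.21. Proliferation genes had a median of 0.16 with 4 of 37 (10.8%) past the fold in that direction. Nuclear oxidative phosphorylation genes had one of 0.06 with 7 of 47 (14.9%). The medians of these 4 lists were above 0 with and without centring, but that of the large subunit turned to -0.11 over genes with no shared 50-base stretch. Of 36 interferon-induced genes 3 were past 1.5-fold: MX2 and MX1 (5.56%) were higher in the precursor control and CMPK2 (2.78%) in the antimir control. These shares were near those of all protein-coding genes. The list median was -0.05 (0.27 without centring). Between the treated libraries that median was -1.63. The control and treated pairs share no sample, but each table normalised a control with its treated library. The HOX list had a median of -0.28 and the nuclear receptor list one of -0.18, both of which turn positive without centring.

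**Figure D4:**
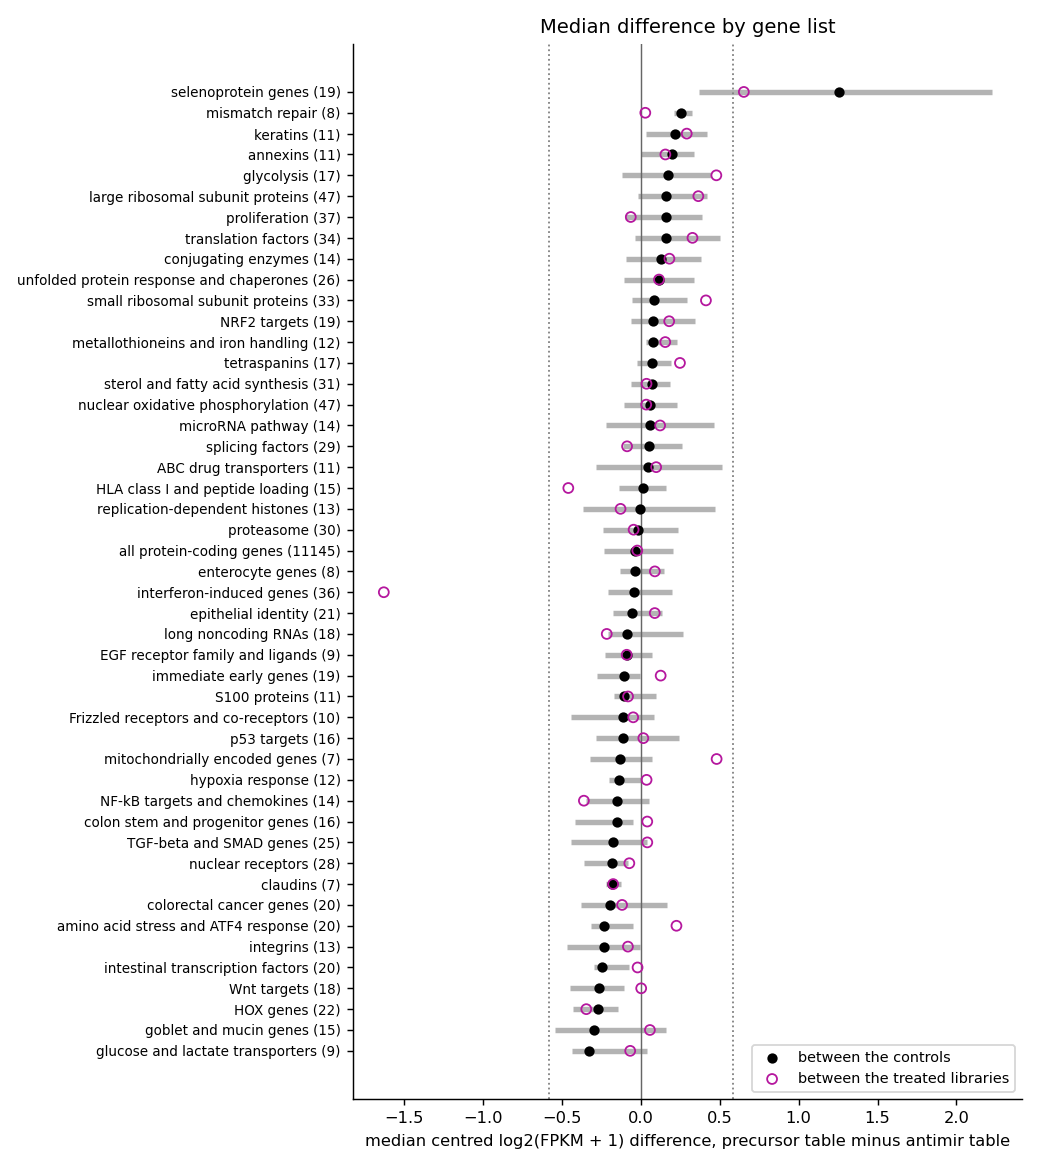
Median centred difference of each gene list with at least 7 genes measured (number in brackets), between the controls (filled, with the middle 50% of genes as a bar) and between the treated libraries (open). The interferon-induced list lies at -0.05 between the controls and -1.63 between the treated libraries, and the dotted lines mark 1.5-fold.

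Several of the largest differences lay in 1 transcript entry, and others were spread over many. EIF3C, a subunit of a translation initiation factor, was at 169 and 4.08 FPKM over several entries, of which the highest held 53.4 FPKM in the precursor control. It has a close copy, EIF3CL, at 71.3 and 0.027 FPKM. Of the 50-base stretches sampled from the most abundant transcript of EIF3C, 87.3% were shared with another gene, so the level of either copy is uncertain. DIO1, a deiodinase of thyroid hormone on chromosome 1 (54356912 to 54376759, hg19), was at 273 FPKM in the precursor control and 4.56 in the antimir control. The precursor library had 0.379 and the antimir library 3.31. Its level in the precursor control was thus unlike all 3 others, and 99.8% of it lay in 1 transcript. The authors' status of that transcript was NOTEST, not OK, in the table of the precursor control. DIO1 therefore has no value from entries with status OK in both tables. KITLG, the ligand of the KIT receptor, was at 1065 FPKM in the precursor control and 50.4 in the antimir control, with 1104 in the precursor and 52.9 in the antimir library. KITLG was high in both libraries of 1 table and lower in both of the other, and 998 FPKM of the first value came from 1 transcript that was listed at 0 in the antimir control. From transcripts of at least 300 bases, with unmatched ones left out, the controls of KITLG were at 66.8 and 50.4 FPKM. The centred difference of KITLG was then 0.12. Its entry at 998 FPKM was left out as unmatched, not as short. MX2, an interferon-induced GTPase, was at 159 and 5.47 FPKM, and at 6.08 and 5.37 from such transcripts. PDCD11, a ribosome assembly factor, went from 274 and 14.5 FPKM to 17.9 and 13.96, and CEP97, a centriole protein, from 92.7 and 4.66 to 2.998 and 2.10. The main entries of MX2 and PDCD11 were also unmatched, while that of CEP97 had 93 bases. Other large differences stayed in this setting: TUBA1A at 6.37, EIF3C at 5.63, DIO1 at 5.34, CCZ1B at 5.05, TXNRD2 at 4.61, H3F3C at 4.04, SMN2 at 3.89 and SYS1-DBNDD2 at 3.86. With OK entries only, TUBA1A was at 5.59, H3F3C at 4.14, EIF3C at 2.82 and SMN2 at 2.41, while TXNRD2 came to 0.13.

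Fewer genes were far higher in the antimir control, and several of them had lost transcripts to failed entries. HNRNPC, a splicing regulator, was at 2.16 and 63.6 FPKM after failed entries with 99.8% and 88.9% of its level were removed, and its difference changed from -4.67 to 0.37 with them kept. ZFP62 (3.28 and 8.53 FPKM) changed from -1.47 to 0.22 in the same way. SMAD5, a mediator of BMP signals, was at 3.59 and 7.13 FPKM with 88.5% and 73.9% left out, and its difference changed from -1.14 to -0.14 with failed entries kept, within 1.5-fold. TPRN, at 9.35 and 18.5 FPKM, had no failed entry, and without its entries under 300 bases it was at 9.35 and 9.02. TFF3, a trefoil peptide of goblet cells, was at 7.89 and 11.9 FPKM, and at 12.6 and 9.82 in the precursor and antimir libraries.

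More genes were past the fold where much sequence was shared and where transcripts were short. For protein-coding genes whose most abundant transcript shared no 50-base stretch with another gene, 5.10% of 5744 were past 1.5-fold higher in the precursor control. Where up to 10% of the stretches were shared this was lower, 2.88% of 2187 genes, and from 10 to 50% it was 8.65% of 1411. Where 50 to 90% were shared it was 23.4% of 496 genes, and above 90% it was 28.0% of 218. The medians did not follow the same order, at 0.11 for 50 to 90% and 0.07 above 90%. Genes whose main transcript was at most 200 bases had a median difference of 0.71 and 54.6% of 97 past the fold, against a median of -0.17 and 2.55% of 1999 for transcripts over 4000 bases. Of the 5351 genes with no shared stretch and a main transcript of at least 300 bases, 183 (3.42%) were higher in the precursor control and 96 (1.79%) in the antimir control. Their Spearman's rho between the controls was 0.983. These measures were chosen after the differences had been seen. The main transcript was picked by its mean over the controls, the same values that give the difference. An entry far higher in either control could thus set the class of its gene. In CEP97 the main transcript had 93 bases, at 87.4 FPKM in the precursor control and listed at 0 in the antimir control. The shares and medians by length and by shared sequence may be set in part by this choice.

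Pseudogenes and small RNAs lay far from the median gene. Processed pseudogenes, copies of messenger RNAs inserted in the genome, had a median difference of 2.17 and 889 of 1027 were past 1.5-fold higher in the precursor control (86.6%). Of the 1027, 231 were listed at 0 in the antimir control and 3 in the precursor control. Their median level was 10.6 FPKM in the precursor control and 0.518 in the antimir control, so many passed the mean of 1 FPKM only through the library where they were high, and the share and median are set in part by that filter. Between the treated libraries the median of the same processed pseudogenes was 2.11. Medians were 1.98 for snoRNAs and 1.95 for snRNAs between the controls, and 0.50 and -0.37 between the treated libraries. Of 78 snoRNAs 37 were listed at 0 in the antimir control and 8 in the precursor control, and of 64 snRNAs 34 and 9. Those passed the filter through 1 library only, so these medians too are set in part by it. The -0.37 is the centring value itself, since 0.37 was removed from every treated difference. Long intergenic noncoding RNAs had a median of -0.15 and antisense RNAs one of -0.21, below 0 only after centring. The part of shared sequence and of length in the difference of any single gene was not tested.

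**Figure D5:**
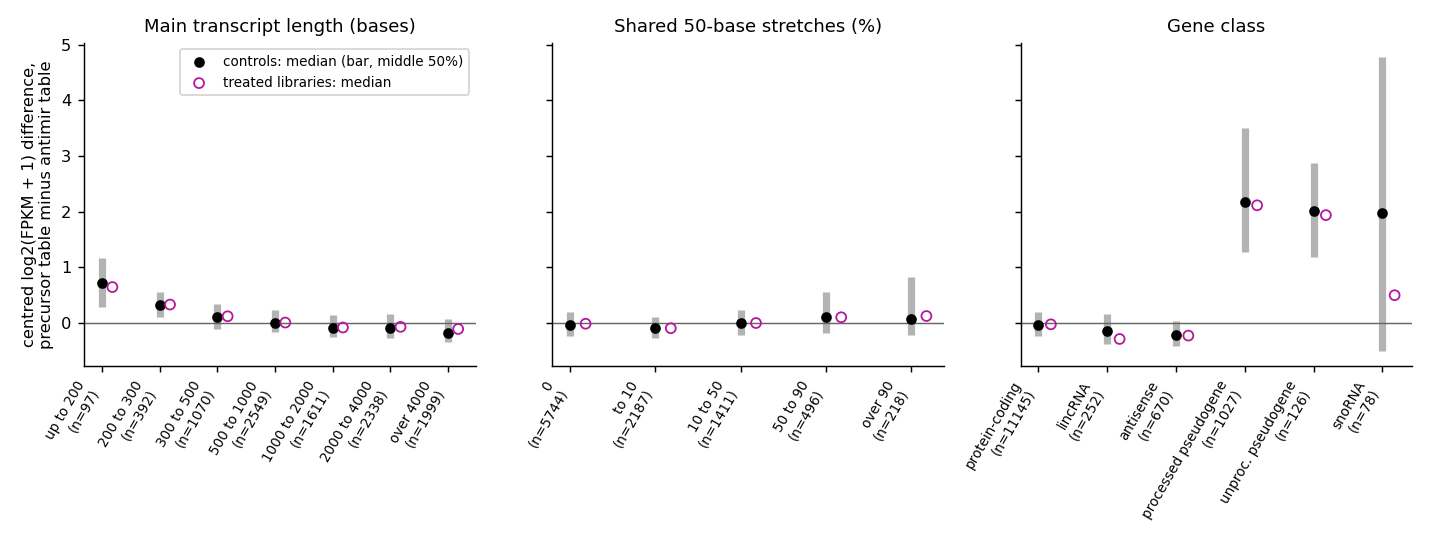
Median centred difference between the controls (filled, bar over the middle 50% of genes) and between the treated libraries (open) by length of the main transcript, by share of 50-base stretches found in other genes, and by gene class. Medians fall from 0.71 for transcripts up to 200 bases to -0.17 over 4000 bases, and processed pseudogenes lie at 2.17. The main transcript was picked by its mean over the controls, which may set part of the order by length and shared sequence.

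Near-identical gene copies were examined as single cases. The first 60 coding bases from GENCODE 29 are printed for 1 such pair, where a read within this stretch fits either copy, with any mismatch in capitals:
HSPA1A: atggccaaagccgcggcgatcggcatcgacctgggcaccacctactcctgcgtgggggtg
HSPA1B: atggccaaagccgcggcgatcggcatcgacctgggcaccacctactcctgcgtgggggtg
No base differs in this stretch. Over the whole coding sequence, 1919 of 1923 bases were identical. HSPA1A, the stress-inducible chaperone, was at 92.9 and 17.0 FPKM and HSPA1B at 98.6 and 19.7. Both copies were higher in the precursor control, and the levels of any 1 copy are uncertain because its reads can be split or shared. CCZ1 and CCZ1B, with 99.9% of coding bases identical, were at 46.7 and 4.75 FPKM and at 121 and 6.04.

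HSPA1A also differed between the treated libraries, with 111 FPKM in the precursor library and 17.7 in the antimir library. Genes of the pseudoautosomal regions lie on both sex chromosomes. Among them SLC25A6, the mitochondrial ADP/ATP carrier, was at 167 FPKM in the precursor control and 187 in the precursor library, and was listed at 0 in the antimir control and the antimir library. It was not alone in this. Of 14 such genes on X that reached 1 FPKM in any library, 13 were listed at 0 in the antimir control. All 14 were at 0 in the antimir library, and none was at 0 in the precursor control or precursor library. They reached 1 FPKM only through the precursor control and precursor library. Of the 761 protein-coding genes past 1.5-fold higher in the precursor control, 498 (65.4%) were also past 1.5-fold in that direction between the treated libraries, and 46 had a treated difference of the opposite sign, of any size. Of the 207 higher in the antimir control, 33 (15.9%) were past it in the same direction and 41 had the opposite sign. With no shared stretch and main transcripts of at least 300 bases, these counts were 81 (44.3%) and 13 of the 183, and 11 (11.5%) and 18 of the 96. The share of all protein-coding genes past 1.5-fold between the treated libraries is not given here, so these overlaps stand without a background.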

How the data were processed

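RNA sequencing of 4 HT29 libraries was quantified by the authors. Per the submitters' processing notes, bcl2fastq 1.8.3, TopHat2 2.0.11, Cufflinks 2.2.0 and Cuffdiff were used with hg19. Their order, settings and annotation are not given in the sources used here. FPKM values deposited by the authors, per transcript, stand in 2 tables, each of 1 treated library and its control, with the status Cuffdiff gave each entry. The authors' p-values were not used.

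Of 168036 transcript entries, 2058 failed in either table and were left out, which removed 178 genes, and 11192 genes had no transcript entry. Transcripts were summed per gene and matched to GENCODE 29 by identifier (90.3% of genes). Its assembly differs, so loci are those of the tables. Differences are log2(FPKM + 1), centred on the median gene, where the mean was 1 FPKM or more, and a call is a difference past 1.5-fold, with no test. Shared sequence is the share of 50-base stretches (1 in 8 sampled) of a gene's most abundant transcript found in another gene. The calculation was tested on simulated data. Python 3.11.15, pandas 2.3.3, NumPy 2.4.6 and SciPy 1.17.1 were used. Alternatives changed the filter, pseudocount, centring and the entries summed.

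The members, the 57 gene lists and the selenoprotein list were chosen with earlier results of these data known. By rule, genes named were the markers, the 10 highest of each library, the 12 largest differences per direction, leading members of each list and family members by level. A few of these are not reported here, and genes cited for copies or selenocysteine were chosen after their values were seen.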

Additional observations from a re-analysis of the deposited data

How the results depend on the processing

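Counts of genes at least 1.5-fold apart depended on the settings. For all genes, those higher in the precursor control (2439) numbered 1436 with a mean of at least 5 FPKM, 4133 without centring, 517 with no shared 50-base stretch and 1354 with OK entries only. Those higher in the antimir control (495) numbered 207, 182 and 176 in the first 3 settings and 851 with the most abundant transcript only. For protein-coding genes, those higher in the precursor control (761) numbered 1525 with the most abundant transcript, 2260 without centring, 1361 with no filter on level and 344 with no shared stretch. Those higher in the antimir control (207) numbered 671, 39, 122 and 78 in the same settings, 84 with a mean of at least 5 FPKM and 367 with a pseudocount of 0.1. Some gene differences changed sign. With failed entries kept, AF011889.5 came to 0.16, HNRNPC to 0.37 and ZFP62 to 0.22. With OK entries only, CEP97 came to -0.14, MX2 to -0.12, PPM1F to 0.066 and UBE2CBP to 0.11. With transcripts of at least 300 bases, unmatched ones left out, MX2 came to -0.13, MDC1 to 0.051 and PPM1F to 0.074. TPRN came to 0.037 with its most abundant transcript. Without centring, 25 of 53 list medians kept their sign. With no shared stretch the large ribosomal subunit median came to -0.11. The settings on shared stretches and on 300 bases were chosen after seeing the data. Each group had 1 library, so none could be left out. No paired analysis was possible because each group holds 1 library and no test was made. Depth is unknown, and no counting error can be given.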
